A study of Mus musculus with 2 samples.

Results

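The 49 genes described here encode the nucleolar machinery that transcribes ribosomal RNA and assembles it into ribosomal subunits. They were chosen by name from the genes that act in these steps, with earlier results of these data known. Counts of members set beside shares of all genes therefore describe this list and are not an independent test of it. All 49 were found by symbol among the 30905 listed genes. By role they comprise 7 genes of RNA polymerase I transcription, 8 of the small nucleolar ribonucleoproteins (snoRNPs) that modify and cut ribosomal RNA, 13 of small subunit assembly, 16 of large subunit assembly and 5 general nucleolar proteins. They were measured with a 10x Genomics single-cell method that tags transcripts at their 3′ ends, in germinal center B cells, the activated B cells that divide and mutate their antibody genes in an immune response. The cells were sorted from spleens of C57BL/6J mice aged 8 weeks that had been immunized with sheep red blood cells (SRBC), and no other group was analysed. There are 2 libraries, and the labels do not say whether these came from separate mice, so every p-value below measures the spread between these libraries, which may be technical.

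Ribosomes begin in the nucleolus, where RNA polymerase I makes a long precursor RNA. snoRNPs modify that precursor, and the assembly factors of each subunit fold it, cut it and load it with ribosomal proteins. In germinal centers, B cells move between a dark zone, where they divide, and a light zone, where they are selected with help from T cells, and the transcription factor Myc, a known activator of ribosome assembly genes, is induced in a small part of the light zone cells.

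A barcode was kept if it had 500 or more genes, 1000 or more UMIs (unique molecular identifiers, each a counted transcript) and no more than 20% mitochondrial UMIs, which left 5142 of 8765 barcodes in library 1 and 3526 of 7868 in library 2. The libraries held 75121538 and 61874342 UMIs, and kept cells had medians of 8183.5 and 8243 UMIs. Between the libraries, 22 barcode sequences were shared, 9 of them after filtering. Each of the 9 markers of germinal center B cells had UMIs in both libraries, among them Mef2b at 303 and 301 CPM and Bcl6 at 110 and 99.6 CPM. Markers of naive or memory B cells, plasmablasts and macrophages had UMIs too, so detection alone does not name the cells. Of the plasmablast list, Jchain was at 604 and 657 CPM and Prdm1 at 1.75 and 1.28 CPM. Of the naive or memory list, Fcer2a was at 130 and 124 CPM and Ccr7 at 1.97 and 2.96 CPM. The 6 T cell markers summed to 1.34 and 2.64 CPM, with Cd3e at 0 and 4 UMIs and the most abundant, Trac, at 55 and 68 UMIs. Cells were sorted into classes on counts thinned to 3400 UMIs per cell, and the full counts were summed per library and class, so that levels are UMIs per 1000000 UMIs of the class (CPM). This 3′ method counts 1 end per transcript, so levels are not divided by gene length.

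The 49 genes gave 340150 UMIs in library 1 and 274681 in library 2, which was 0.577% and 0.666% of all UMIs. Npm1 (nucleophosmin) and Ncl (nucleolin), abundant nucleolar proteins that chaperone ribosomal particles, supplied 40.7% and 42.4% of those UMIs. The median gene stood at 52.1 CPM in library 1 and 59.1 CPM in library 2, the lowest at 12.3 and 14.4 CPM, and 15 genes were at or above 100 CPM in both. In library 2, 44 of the 49 genes had the higher level. The share of all genes with a higher level in library 2 was not computed. A general shift between the libraries is therefore not told apart from one in these genes. In the annotation (GENCODE M21, build mm10) the genes lie on 18 chromosomes. No member overlaps another listed gene on its own strand and 19 overlap one on the opposite strand, among them Cd3eap (with Ercc1), Gnl3 (with Pbrm1), Rrp9 (with Parp3), Polr1a, Polr1e, Rrp1b, Nop56 and Noc2l. Whether the counting used strand is not given in the sources used here, so the counts of those 19 genes are uncertain to that extent.

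Because Myc binds the letters CACGTG (the E-box, the same on both strands), promoters were read from the RefSeq table for build GRCm38.p6, from 250 bases before each start to 50 after it, for the 43 members it lists. CACGTG stood in 10 of the 43 (23.3%), against 8.09% of the 27025 genes in the table and 12.5% of the 8026 of them tested in the Myc comparison below. A match is a description of the letters and not a binding site. The RNA polymerase I genes with a match were Cd3eap, which encodes a polymerase subunit, and Rrn3, the factor that brings the polymerase to its promoter. Their 250 bases before the start are shown because Cd3eap passed in the Myc comparison and Rrn3, of the same role and with the same letters, did not. The pair was picked on that outcome and the genes were not tested against each other. In cells drawn to equal depth Cd3eap was not called. Capitals mark CACGTG.
Cd3eap, chr7:19359484-19359733, minus strand: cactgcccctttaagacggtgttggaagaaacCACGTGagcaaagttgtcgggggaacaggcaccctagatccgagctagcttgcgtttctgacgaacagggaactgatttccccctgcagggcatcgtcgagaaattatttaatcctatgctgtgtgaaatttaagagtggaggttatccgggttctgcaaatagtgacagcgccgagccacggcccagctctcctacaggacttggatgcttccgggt
Rrn3, chr16:13780449-13780698, plus strand: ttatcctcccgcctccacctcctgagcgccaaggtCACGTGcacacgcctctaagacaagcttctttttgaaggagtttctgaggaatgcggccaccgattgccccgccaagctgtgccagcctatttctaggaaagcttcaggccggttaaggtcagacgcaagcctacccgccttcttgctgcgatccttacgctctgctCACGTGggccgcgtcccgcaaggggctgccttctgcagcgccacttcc

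Counted from the start as base 1, with the base before it as -1, the matches begin at -218 in Cd3eap and at -215 and -48 in Rrn3, and Cd3eap has one more at base 21. The subunit assembly members with a match are shown as short windows so that their flanks can be compared. Nop2 and Pes1 belong to the large subunit and the others to the small subunit.
Nop2, chr6:125131811-125131840, plus strand: gtgtccctggatCACGTGtgttccggtgcc
Pes1, chr11:3963965-3963994, plus strand: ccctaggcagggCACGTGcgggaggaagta
Utp18, chr11:93885769-93885798, minus strand: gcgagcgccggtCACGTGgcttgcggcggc
Tsr1, chr11:74898092-74898121, plus strand: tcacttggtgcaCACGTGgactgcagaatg
Utp4, chr8:106893643-106893672, plus strand: tgcgcaagcgcgCACGTGgggccggggcgg
Wdr43, chr17:71616220-71616249, plus strand: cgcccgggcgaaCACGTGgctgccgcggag
In these windows CACGTG is followed by G in Utp18, Tsr1, Utp4 and Wdr43. Mybbp1a and Utp20 also hold a match, near the end of their windows.

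The first comparison asked how the genes differ between light zone and dark zone cells. Light zone gate cells carried a thinned UMI of the light zone genes Cd83 or Cd86 but lacked the dark zone gene Cxcr4 (1647 and 1199 cells in libraries 1 and 2), and dark zone gate cells were the reverse (775 and 484 cells). A single UMI decided the gate of 810 and 561 light zone gate cells and of 590 and 370 dark zone gate cells, and what free RNA adds to such calls was not measured. As a group the 49 genes stood higher in the light zone gate: they took 0.611% and 0.761% of UMIs there, against 0.507% and 0.533% in the dark zone gate. With edgeR's quasi-likelihood test, 44 of 49 passed an adjusted p of 0.05 as higher, where 16.1% of the 10758 genes tested did. All 49 fitted changes were above 0, with a median log2 change of 0.43 (0.29 within library 1 and 0.55 within library 2), against 0.00 over all genes tested. In 43 genes both light zone gate values lay above both dark zone gate values, a count that was not made over all genes tested. The change was larger in library 2 for 46 of 49 genes, and the share of all genes with a larger change there was not computed.

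Within RNA polymerase I transcription, 6 of 7 genes rose. Polr1b, the second-largest catalytic subunit, was at 15.8 and 18.3 CPM in light zone gate cells (libraries 1 and 2), against 8.77 and 7.36 CPM in dark zone gate cells (log2 change 1.03 ± 0.15 SE, edgeR adjusted p = 3.9e-10). It had the largest rise of the 49 genes, on some of the lowest levels. Cd3eap was at 29.6 and 33.4 CPM in the light zone gate, against 20.4 and 19.6 CPM in the dark zone gate (log2 change 0.63 ± 0.11 SE, edgeR adjusted p = 1.4e-07). Polr1a, the largest subunit, was at 36.8 and 37.7 CPM in the light zone gate, against 33.1 and 23.3 CPM in the dark zone gate (0.36 ± 0.10), a difference that lay mostly in library 2. Polr1c, a subunit shared with RNA polymerase III, changed by 0.38 ± 0.09 and Polr1e, an initiation subunit, by 0.30 ± 0.10, and only in Polr1e did the values of the gates overlap. Ubtf, which binds ribosomal DNA and holds it open for transcription, was at 181 and 190 CPM in the light zone gate, against 164 and 170 CPM in the dark zone gate (0.15 ± 0.06, edgeR adjusted p = 0.044). Its change was close to 0 (-0.023) when both gates were drawn to equal shares of cell cycle phases. Rrn3 was at 25.04 and 28.4 CPM in the light zone gate, against 25.1 and 26.7 CPM in the dark zone gate (0.03 ± 0.11), and did not pass.

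**Figure D1:**
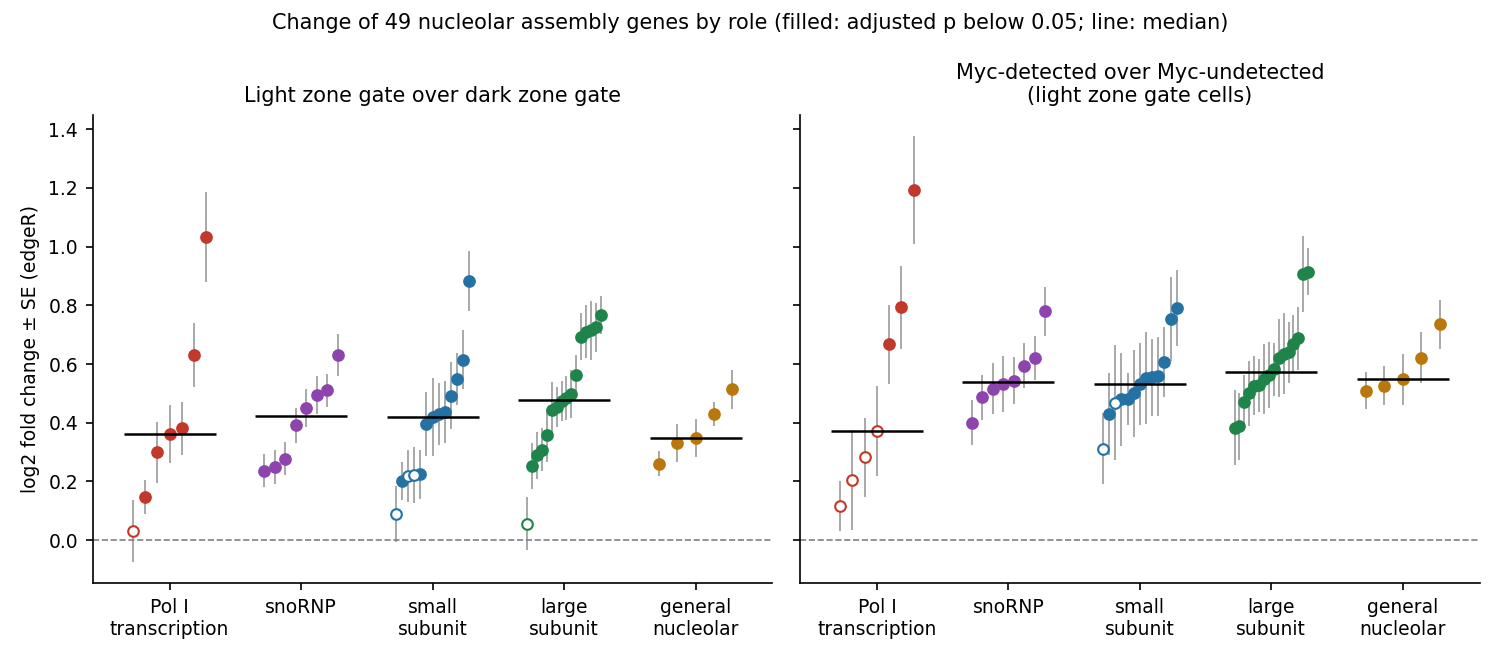
Log2 fold change with its standard error (y axis) of each of the 49 genes, grouped by role (x axis), for light zone gate over dark zone gate cells (left) and for Myc-detected over Myc-undetected light zone gate cells (right). Filled points passed an edgeR adjusted p of 0.05, and black lines are medians; all points lie above 0, and the RNA polymerase I group spreads widest, with Polr1b highest and Rrn3 or Ubtf lowest.

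All 8 snoRNP genes rose, with a median log2 change of 0.42. Gar1, a core protein of the box H/ACA particles that convert uridine to pseudouridine, was at 86.8 and 113 CPM in light zone gate cells, against 57.3 and 70.6 CPM in dark zone gate cells (0.63 ± 0.07). Nhp2, its partner in the same particles, was at 217 and 290 CPM in the light zone gate, against 169 and 181 CPM in the dark zone gate (0.51 ± 0.06). The smallest changes were in the box C/D particle proteins Nop56 (0.24), Nop58 (0.25) and the methyltransferase Fbl (0.28).

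Among small subunit genes, 10 of 13 rose, with a median of 0.42. Rrp9, a protein of the U3 particle that starts small subunit assembly, was at 34.6 and 48.6 CPM in the light zone gate, against 20.5 and 23.5 CPM in the dark zone gate (0.88 ± 0.10, edgeR adjusted p = 4.0e-16). Noc4l, a nucleolar small subunit factor, was at 35.5 and 42.6 CPM in the light zone gate, against 23.5 and 27.1 CPM in the dark zone gate (0.61 ± 0.10). Not called were the endonuclease Nob1 (0.09 ± 0.10), which trims the end of 18S RNA, Tsr1 (0.22 ± 0.09) and Bysl (0.22 ± 0.10).

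Of the large subunit genes 15 of 16 rose, with a median of 0.48 (0.35 within library 1 and 0.61 within library 2). Gnl3 (nucleostemin), a nucleolar GTPase, was at 149.5 and 172 CPM in the light zone gate, against 98.8 and 86.7 CPM in the dark zone gate (0.77 ± 0.06, edgeR adjusted p = 4.0e-30). Nop16 was at 53.6 and 77.4 CPM in the light zone gate, against 34.2 and 43.8 CPM in the dark zone gate (0.73 ± 0.08). Rrp1b (0.72), Rrp15 (0.71) and Noc2l (0.69) followed, with no overlap between gates in any of these genes. Gnl2, another nucleolar GTPase, changed by 0.06 ± 0.09 and was not called. All 5 general nucleolar genes rose, led by the rRNA transcription regulator Mybbp1a (0.51 ± 0.07) and Npm1, which was at 1274 and 1879 CPM in the light zone gate, against 1056 and 1237 CPM in the dark zone gate (0.43 ± 0.04).

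**Figure D2:**
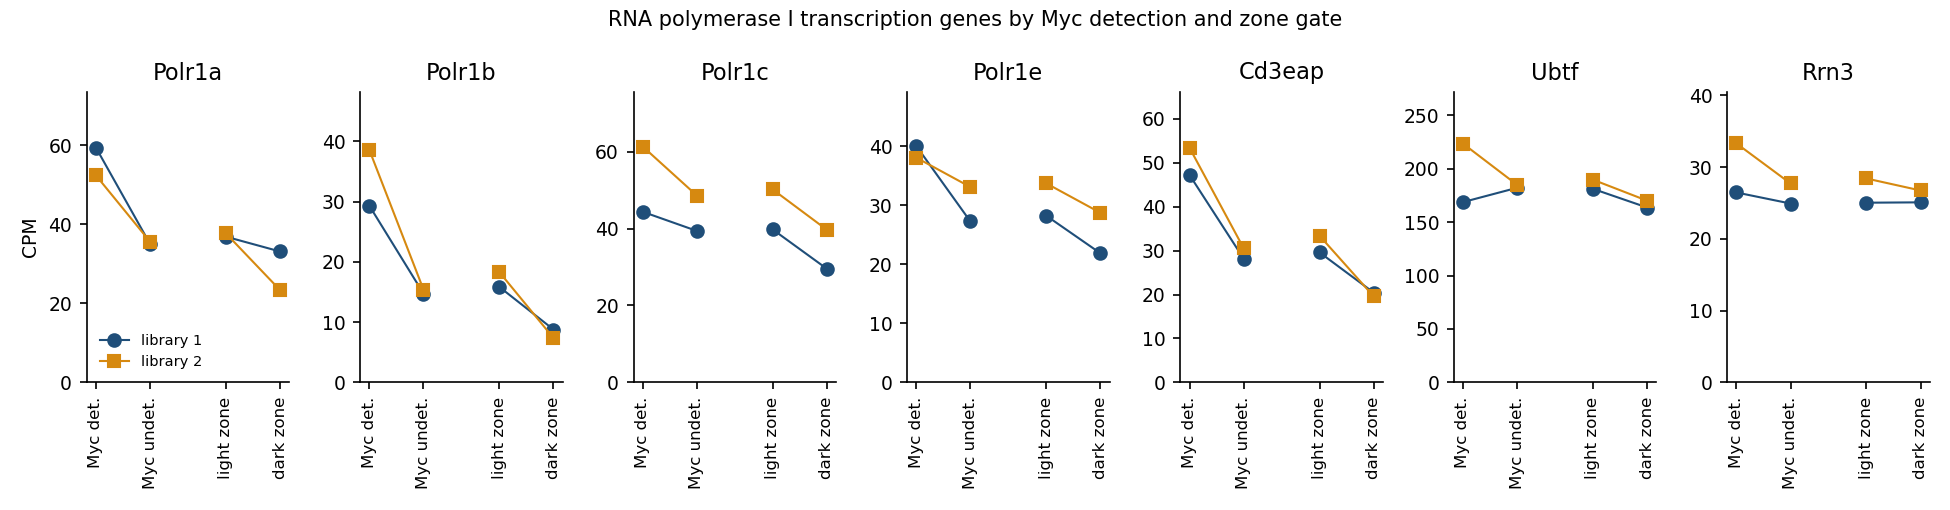
Level (CPM, y axis from 0) of the 7 RNA polymerase I transcription genes in Myc-detected and Myc-undetected light zone gate cells and in the light zone and dark zone gates (x axis); circles are library 1 and squares library 2, with lines joining the values of 1 library. Polr1b, Cd3eap and Polr1a lie higher in Myc-detected cells in both libraries, while Rrn3 is near level between the gates.

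A list of 90 other ribosome assembly genes was also examined: 89 were found and tested, and 45 of them passed as higher, with a median of 0.24. Tma16, a factor of the 60S pathway, changed by 1.02 ± 0.11, the small subunit processing factor Rcl1 by 0.93 ± 0.11 and the large subunit ATPase Mdn1 by 0.81 ± 0.10. Of the 8 other RNA polymerase I genes in that list 1 passed. The light zone gate also held more naive or memory B cell marker RNA (a summed 314 and 320 CPM over 7 markers, against 131 and 135 CPM in the dark zone gate), more G1-like cells (28.3% and 24.4%, against 12.4% and 10.7%) and more macrophage marker RNA (28.2 and 10.4 CPM over 7 markers, against 5.77 and 4.85 CPM), and naive or memory marker RNA was not tested for its part. With equal phase shares 39 members were higher (15% of all genes), and without barcodes that held other lineage markers 43 were (14.9%, median 0.45). In cells matched for depth, an alternative chosen after seeing the data, 44 members were higher, against 16% of the 10237 genes tested. Gates of at least 2 UMIs gave 36 (12.4%, median 0.58). DESeq2 called 23 higher (4.48% of all genes), sums of thinned counts 22 (8.46%) and edgeR without the library as a term 12 (3.34%).

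The second comparison split the light zone gate by Myc. Cells with at least 1 thinned Myc UMI (113 and 116 cells) were set against cells with none (1534 and 1083 cells); most of the first class held a single Myc UMI, and a cell with none may still express the gene. Members took 0.803% and 1.10% of UMIs in Myc-detected cells, against 0.595% and 0.713% in Myc-undetected cells. With edgeR, 43 of 49 genes were higher, against 7.95% of the 10284 genes tested, and all 49 fitted changes were above 0. The median log2 change was 0.55 (0.53 within library 1 and 0.60 within library 2), against 0.00 over all genes tested. In 39 members the classes did not overlap, and how many of all genes tested did not was not counted. DESeq2 called 24 members higher (2% of all genes), sums of thinned counts 18 (2.77%) and edgeR without the library as a term 4 (0.827%). With a second thinning seed, which redraws the Myc classes, 47 members were higher (15.9% of all genes), with a median of 0.78.

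RNA polymerase I transcription was the most divided role, with 3 of 7 genes higher. Polr1b was at 29.3 and 38.6 CPM in Myc-detected cells, against 14.7 and 15.4 CPM in Myc-undetected cells (log2 change 1.19 ± 0.18 SE, edgeR adjusted p = 2.0e-07), again the largest change of the 49. Cd3eap was at 47.2 and 53.4 CPM in Myc-detected cells, against 28.1 and 30.5 CPM in Myc-undetected cells (0.79 ± 0.14, edgeR adjusted p = 8.1e-06). Polr1a was at 59.4 and 52.3 CPM in Myc-detected cells, against 34.99 and 35.6 CPM in Myc-undetected cells (0.67 ± 0.14). In all of these both Myc-detected values lay above both others. Not called were Polr1e (0.37 ± 0.15), Polr1c (0.28 ± 0.13), Rrn3 (0.20 ± 0.17) and Ubtf, which was at 169 and 224 CPM in Myc-detected cells, against 182 and 185 CPM in Myc-undetected cells (0.11 ± 0.09) and so differed in direction between the libraries. Rrn3, with CACGTG at -215 and -48, had 26.5 and 33.3 CPM in Myc-detected cells, against 24.9 and 27.7 CPM in Myc-undetected cells, while Cd3eap, with the same letters at -218 and at base 21, was higher. Over all members in the promoter table, the median log2 change was 0.55 for the 10 with CACGTG and 0.56 for the 33 without it.

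In the other roles nearly all genes were higher: 8 of 8 snoRNP genes (median log2 change 0.54), 11 of 13 small subunit genes (0.53), 16 of 16 large subunit genes (0.57) and 5 of 5 general nucleolar genes (0.55). Gnl3 was at 255 and 296 CPM in Myc-detected cells, against 141 and 154 CPM in Myc-undetected cells (0.91 ± 0.08, edgeR adjusted p = 5.9e-18). Rrp1b, a nucleolar large subunit factor, was at 62.96 and 73.5 CPM in Myc-detected cells, against 32.1 and 41.2 CPM in Myc-undetected cells (0.91 ± 0.13). Rrp9 changed by 0.79 ± 0.13 and Wdr75, a component of the complex that processes the start of the precursor, by 0.75 ± 0.14. Nolc1, which chaperones snoRNPs, was at 193 and 252 CPM in Myc-detected cells, against 119 and 143 CPM in Myc-undetected cells (0.78 ± 0.08). Ddx21, a nucleolar RNA helicase, changed by 0.73 ± 0.08, Nhp2 by 0.62 ± 0.07 and Lyar, a nucleolar zinc finger protein, by 0.62 ± 0.09. The small subunit genes not called were Rrp12 (0.47 ± 0.20) and Nop14 (0.31 ± 0.12).

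The share of members was higher in classes with more Myc UMIs. In library 1 the members took 0.595% of UMIs in light zone gate cells with 0 thinned Myc UMIs (1534 cells), 0.781% with 1 (103 cells) and 1.06% with at least 2 (10 cells). Library 2 gave 0.713% (1083 cells), 1.08% (89 cells) and 1.16% (27 cells). The order was the same in both libraries and again when cells were thinned with a second random seed (0.575%, 0.882% and 0.924% in library 1, 0.655%, 1.23% and 1.33% in library 2), with the highest class resting on few cells. Depth and mitochondrial share moved with these classes: median depth was 8024.5, 8925 and 9591 UMIs in library 1 and 8789, 11281 and 14142 UMIs in library 2, and the median mitochondrial share was 13.2%, 13.5% and 9.03% in library 1 and 12.7%, 10.6% and 8.48% in library 2. These classes were not compared at equal depth. RNA polymerase I genes summed to more in each higher class in library 1 (352, 398 and 622 CPM) and showed no step between 1 and at least 2 UMIs in library 2 (376, 501 and 499 CPM).

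**Figure D3:**
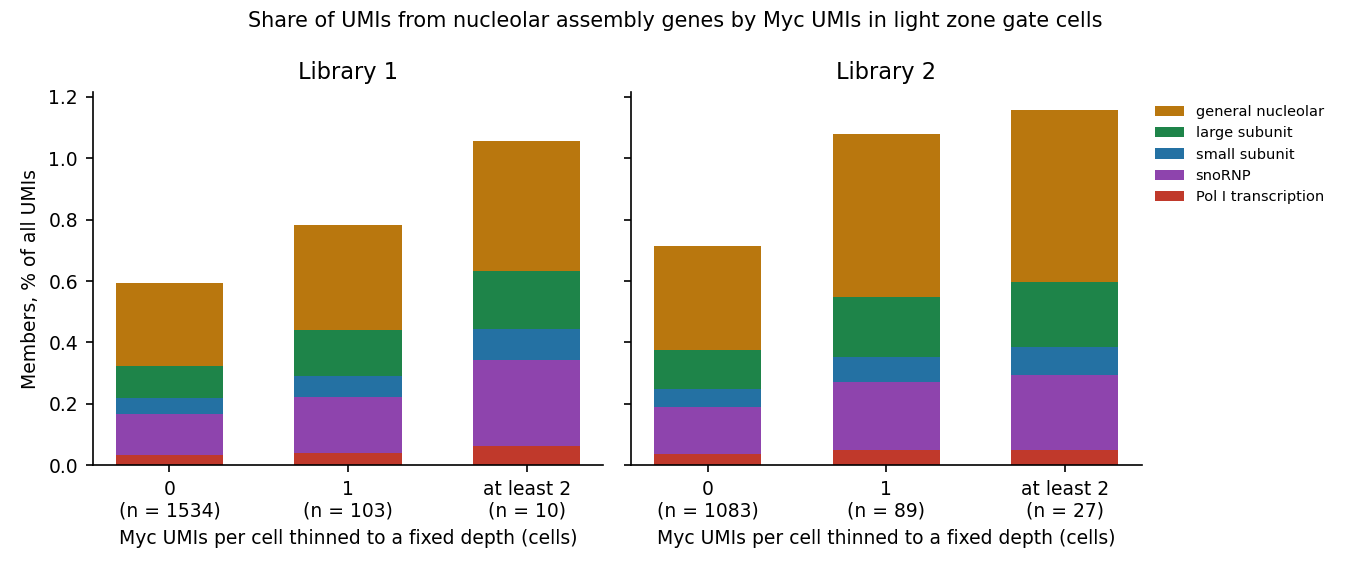
Share of all UMIs from the 49 genes (y axis, percent, from 0) in light zone gate cells by thinned Myc UMIs per cell (x axis, with the number of cells), stacked by role, for library 1 (left) and library 2 (right). The total is 0.595%, 0.781% and 1.06% in library 1 and 0.713%, 1.08% and 1.16% in library 2.

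The Myc difference was not shown to depend on the cell cycle. Among G1-like light zone gate cells, 22 members were higher in Myc-detected than in Myc-undetected cells (median log2 change 0.71, against a background of 3.89% of 8974 genes), and among S-like or G2/M-like cells 37 were (0.54, background 4.18%). The difference between these effects had a median of -0.17, and edgeR's test of it called 0 of 49 members and 21 of 8974 genes (0.234%), with 6 members at an unadjusted p below 0.05, 5 of them smaller in cycling cells. Of the 89 other assembly genes 43 were higher in Myc-detected cells, led by the small subunit gene Utp15 (0.90 ± 0.18), the RNA polymerase I factor subunit Taf1a (0.90 ± 0.30) and Tma16 (0.88 ± 0.13).

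Myc-detected cells were also deeper, with medians of 8925 and 11508 UMIs, against 8024.5 and 8789 UMIs in Myc-undetected cells. In cells drawn to equal depth, 12 members were higher, against 2.49% of the 8361 genes tested, and the median was 0.31. Those 12 included Polr1b (1.45 ± 0.26), Polr1a (0.72 ± 0.19), Gnl3 (0.63 ± 0.11), Rrp1b (0.55 ± 0.17), Nop56 (0.48 ± 0.10) and Nolc1 (0.46 ± 0.11), while Cd3eap changed by 0.41 ± 0.19, Rrp9 by 0.47 ± 0.16 and Npm1 by 0.13 ± 0.09 and were not called. Macrophage markers summed to 253 CPM in Myc-detected cells of library 1 and 8.46 CPM in those of library 2, against 9.83 and 10.7 CPM in Myc-undetected cells. Without barcodes that held other lineage markers, 44 members were higher, against 9.39% of the 10033 genes tested, with a median of 0.63.

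The third comparison was of dividing cells by phase. Phase was scored on the thinned counts from fixed gene lists, which gave 2308 and 1547 G2/M-like, 1532 and 1080 S-like and 837 and 508 G1-like cells, and 976 and 584 cells lay near a boundary. G2/M-like and S-like cells had similar depth (medians of 10379 and 10189 UMIs, against 9649.5 and 9914.5 UMIs); their comparison was added after seeing the data. As a group the 49 genes were lower in G2/M-like cells, at 0.545% and 0.637% of UMIs, against 0.684% and 0.769% in S-like cells. With edgeR 46 of 49 genes were lower, against 25.5% of the 11320 genes tested, with a median log2 change of -0.31 and 48 genes lower in both libraries. Cells drawn to equal depth gave 47 lower genes (background 25.1%), but in cells with at most 10% mitochondrial UMIs the count was 12 (9.57% of all genes) and the median -0.09, and without the library as a term it was 14 (4.82%).

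Of the 7 RNA polymerase I members 6 were lower, with a median of -0.48. Cd3eap was at 17.8 and 20.3 CPM in G2/M-like cells, against 39.3 and 43.97 CPM in S-like cells (log2 change -1.13 ± 0.06 SE, edgeR adjusted p = 4.4e-73). Ubtf was at 129 and 135 CPM in G2/M-like cells, against 229.6 and 233 CPM in S-like cells (-0.82 ± 0.03, edgeR adjusted p = 1.4e-146). The classes lay far apart in both genes, whereas Ubtf changed by 0.15 between zones and by 0.11 with Myc. Polr1a (-0.50 ± 0.06) and Polr1b (-0.48 ± 0.09) were lower too, and Rrn3 (-0.14 ± 0.06) was not called.

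All 8 snoRNP genes were lower (median -0.32), led by Nolc1, at 105 and 119 CPM in G2/M-like cells, against 153 and 161 CPM in S-like cells, and by Nop56 (-0.45 ± 0.03). Of the small subunit genes 12 of 13 were lower (-0.28), led by Utp4 (-0.61 ± 0.07) and Utp20 (-0.57 ± 0.06), factors of early small subunit assembly. Of the large subunit genes 15 of 16 were lower (-0.34). Rrp1b was at 24.2 and 29.97 CPM in G2/M-like cells, against 41.7 and 45.7 CPM in S-like cells (-0.71 ± 0.06), and Rrp15 changed by -0.66 ± 0.05. All 5 general nucleolar genes were lower (-0.28), among them Mybbp1a (-0.33 ± 0.03) and Lyar (-0.31 ± 0.03). Noc4l (-0.04 ± 0.06) and Wdr12, a member of the PeBoW complex of large subunit assembly (0.04 ± 0.05), were not called, while its partners Pes1 (-0.30) and Bop1 (-0.18) were lower. The 89 other assembly genes were mixed, with 39 lower and 15 higher, but the 8 RNA polymerase I genes among them had 4 higher and 2 lower, with a median of 0.24. Rcl1 was lower (-0.56 ± 0.06), as was the small subunit factor Pno1 (-0.45 ± 0.05), and the nucleolar helicase Ddx54 was higher (0.52 ± 0.03).

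**Figure D4:**
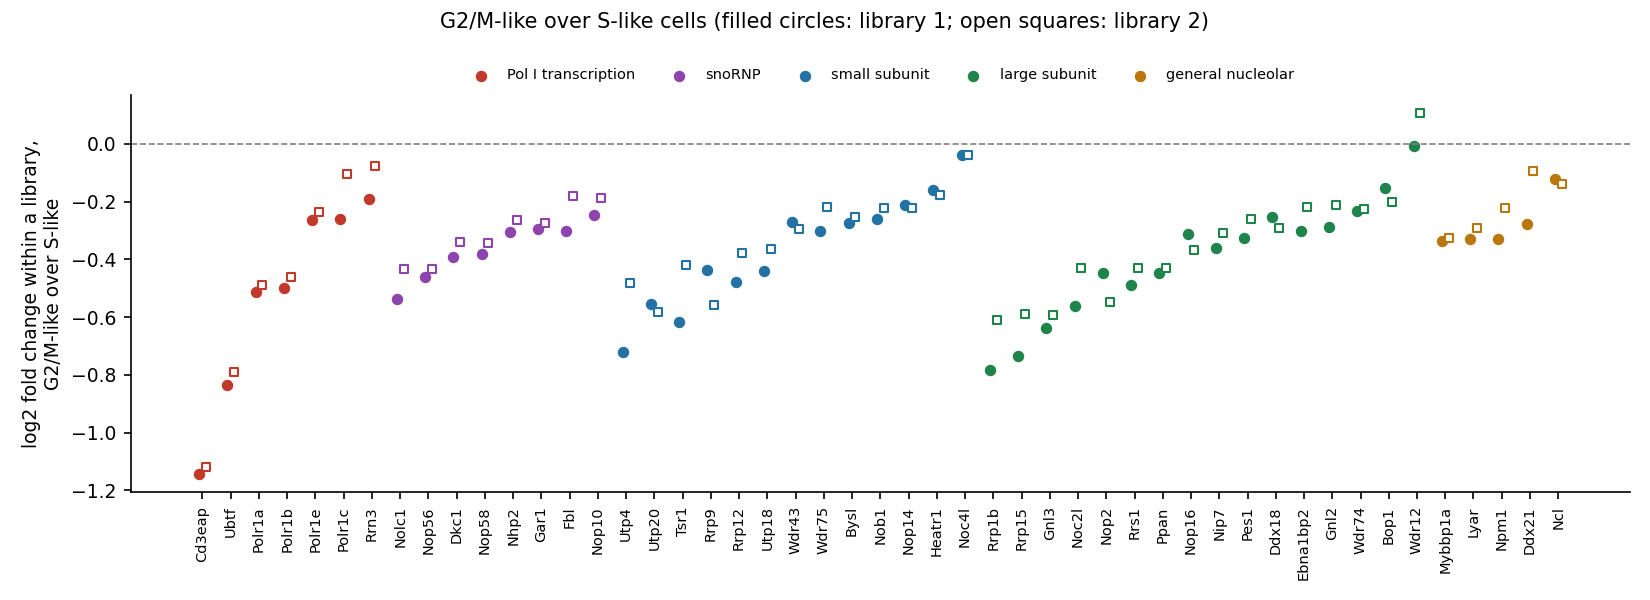
Log2 fold change of G2/M-like over S-like cells within library 1 (filled circles) and library 2 (open squares) for each of the 49 genes (x axis), grouped and coloured by role. Cd3eap and Ubtf lie lowest in both libraries, and Wdr12 is the gene with a value above 0.

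Against G1-like cells the counts differed between cells as sorted and cells drawn to equal depth. As sorted, 40 of 49 genes were higher in S-like than in G1-like cells (background 29.8%, median log2 change 0.49), and 21 were higher and 5 lower in G2/M-like than in G1-like cells (backgrounds 27.5% and 26.5%, median 0.15). Lyar had the largest change, at 142 and 169 CPM in S-like cells, against 47.8 and 60.9 CPM in G1-like cells (1.57 ± 0.08), and 1.26 ± 0.07 in G2/M-like cells. Nolc1 (1.09 ± 0.07), Cd3eap (1.08 ± 0.11) and Npm1 (0.99 ± 0.07) followed in S-like cells, while Ubtf (-0.53 ± 0.06), Polr1a (-0.41 ± 0.10), Ppan (-0.26 ± 0.07) and Pes1 (-0.25 ± 0.07) were lower in G2/M-like than in G1-like cells. But G1-like cells were shallow, with medians of 5400 and 5761.5 UMIs, and in cells of equal depth 7 genes were higher and 10 lower in S-like cells (backgrounds 20.2% and 19.4%, median 0.03), and 1 was higher and 30 lower in G2/M-like cells (backgrounds 23% and 24.3%, median -0.37). Ubtf and Polr1a stayed lower in G2/M-like than in G1-like cells there (-0.69 ± 0.07 and -0.65 ± 0.13), Ncl was the gene still higher (0.22 ± 0.04), and Cd3eap remained higher in S-like than in G1-like cells (0.56 ± 0.15). G1-like cells also held more naive or memory B cell marker RNA (179 and 191 CPM in G2/M-like cells, against 536 and 596 CPM in G1-like cells) and macrophage marker RNA (6.04 and 6.46 CPM in G2/M-like cells, against 83.9 and 24.9 CPM in G1-like cells). Without barcodes that held other lineage markers, 38 members were higher in S-like cells (background 28.5%, median 0.43). In G2/M-like cells 19 were then higher and 6 lower (backgrounds 27% and 25.7%, median 0.14). The part of the naive or memory markers was not tested.

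The share of UMIs from these genes was higher in deeper cells. When cells of each library were ordered by UMIs and cut into 10 groups of nearly equal size, the members took 0.336% of UMIs in the shallowest group and 0.861% in the deepest in library 1, and 0.388% and 1.03% in library 2. G1-like cells made up 50.5% and 43.0% of the shallowest group and 0.641% and 0.637% of the deepest. At matched depth, the share was lower in G2/M-like than in S-like cells in 19 of the 20 groups of both libraries. The median mitochondrial share was 16.0% in the shallowest group and 6.23% in the deepest in library 1, and 16.3% and 6.04% in library 2. Within the shallowest group it was 16.1% and 16.0% in G1-like cells (libraries 1 and 2), against 15.4% and 16.3% in G2/M-like cells. Within group 5 of the 10 it was 10.4% and 8.92% in G1-like cells, against 14.9% and 16.0% in G2/M-like cells. The part of the mitochondrial share in the trend and in the comparisons with G1-like cells was not tested. RNA content and capture per cell cannot be told apart here.

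**Figure D5:**
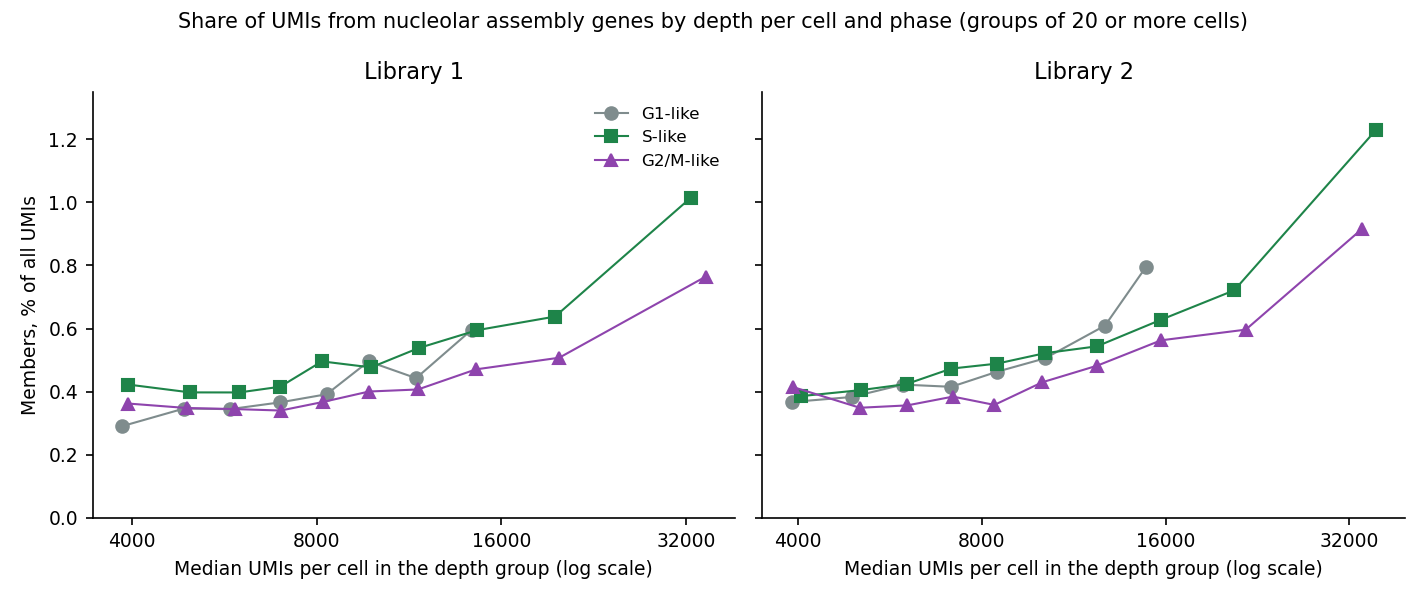
Share of all UMIs from the 49 genes (y axis, percent, from 0) against the median UMIs per cell of each depth group (x axis, log scale) for G1-like, S-like and G2/M-like cells of library 1 (left) and library 2 (right), groups of 20 or more cells. In S-like and G2/M-like cells the deepest group has a higher share than the shallowest in both libraries, and G2/M-like cells lie below S-like cells in 19 of 20 groups.

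By antibody class the genes differed little. Cells in which at least 80% of 5 or more heavy chain constant UMIs came from IgG genes (2192 and 1437 cells) had 0.587% and 0.696% of UMIs from the members, against 0.559% and 0.623% in cells with as large a share from Ighm and Ighd (IgM cells, 1775 and 1323 cells). With edgeR 8 of 49 genes were higher, where 5.87% of the 11231 genes tested were, with a median log2 change of 0.08. The 8 were the small subunit genes Rrp12 (0.30 ± 0.09), Tsr1 (0.22 ± 0.06) and Wdr43 (0.15 ± 0.04), the large subunit genes Ppan (0.22 ± 0.05) and Rrs1 (0.20 ± 0.05), Nhp2 (0.13 ± 0.04), and the general nucleolar genes Ncl (0.16 ± 0.03) and Ddx21 (0.12 ± 0.04). Ncl was at 1140 and 1254 CPM in IgG cells, against 1021 and 1090 CPM in IgM cells. The classes did not overlap for Ncl, and they did for Ppan, Rrs1 and Nhp2. No RNA polymerase I gene was called; Cd3eap came nearest (0.19 ± 0.07, edgeR adjusted p = 0.052). With other choices of cells, the count was 30 (5.79% of all genes, median 0.20) when 95% of heavy chain UMIs had to agree and 26 (5.95%, median 0.17) at a mitochondrial limit of 10%. On the same cells DESeq2 called 1 (0.703%) and edgeR without the library as a term 0 (0.16%), with medians of 0.08 and 0.09. IgG cells held less naive or memory marker RNA (154 and 155 CPM, against 269 and 291 CPM in IgM cells).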

How the data were processed

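The authors deposited raw UMI counts per gene and barcode for 2 libraries, made with Cell Ranger (3.0.2, per the file headers) and mapped to mm10 per the submitters' processing notes; the annotation release and the rule for calling cells are not given in the sources used here. Barcodes were kept with at least 500 genes, 1000 UMIs and at most 20% mitochondrial UMIs, which removed many barcodes (of 8385 and 7672 that met the first 2 limits, 5142 and 3526 stayed). No doublet caller was run; instead, an alternative left out the deepest 6% of barcodes. For the zone, Myc and phase classes cells were thinned to 3400 UMIs, the 10th percentile, which left out 465 and 391 shallower cells. Phase was scored per library with scanpy 1.11.5. Full counts were summed per library and class and tested with edgeR 4.0.16 (R 4.3.3) by the quasi-likelihood test, with TMM scaling, its default filter on low counts, the library as a block and Benjamini-Hochberg adjustment over all genes tested. Both classes of a comparison come from the same library, which is what pairs them, and 1 residual degree of freedom remains per gene, so the spread is mostly shared over genes. All 49 members passed the filter in every comparison. The test was also run on simulated counts with the same dispersion for every gene and no difference between libraries beyond their size. That setting is simpler than these data, so it does not measure how reliable the calls here are. Alternatives were DESeq2 1.42.0, other scalings, filters, limits, seeds and cell choices. The members and gene lists were chosen with earlier results of these data known. Named genes are up to 8 members with the largest rise and 4 with the largest fall per comparison, the 7 RNA polymerase I members, up to 2 per other role and 3 other assembly genes; those named as not called complete a role and were chosen after their values were seen.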

Additional observations from a re-analysis of the deposited data

How the results depend on the processing

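The direction of the members as a group held under every alternative for the light zone gate and Myc-detected comparisons and for G2/M-like against S-like cells, while the counts of calls moved. Without the library as a term, the pairing of classes within a library is not used (no replicate block). Members higher were then 12 in the light zone gate, 4 in Myc-detected and 0 in IgG cells. In G2/M-like against G1-like cells 7 of 49 members were higher and 2 lower, beside 16.8% and 15.2% of all genes. Members lower in G2/M-like than in S-like cells were 14. Genes called were 566 for zones, 101 for Myc, 92 for isotype, 3522 for G2/M-like against G1-like and 1190 for G2/M-like against S-like cells. DESeq2 gave 23 members higher for zones, 24 for Myc and 1 for isotype. In G2/M-like against G1-like cells it gave 11 higher and 1 lower (backgrounds 16.7% and 11.6%). It called 829 genes for zones, 298 for Myc, 274 for isotype and 3123 for G2/M-like against G1-like cells. For S-like against G1-like cells it called 3218, and for G2/M-like against S-like cells 2111. Sums of thinned counts, which hold fewer UMIs, gave 22 members higher for zones, 18 for Myc and 2 for isotype (3.07% of all genes). In G2/M-like against G1-like cells they gave 11 higher and 6 lower (backgrounds 21.8% and 20.1%), with a median of 0.02. They called 1513 genes for zones, 381 for Myc, 805 for isotype, 3992 for S-like against G1-like and 3253 for G2/M-like against S-like cells. Rrs1 then changed by -0.022 between isotypes.

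Cells of equal depth gave 12 members higher for Myc (352 genes called) and 13 for isotype (6.61% of all genes). They gave 1 higher and 30 lower for G2/M-like and 7 higher and 10 lower for S-like against G1-like cells (3796 genes called). In G2/M-like against G1-like cells the sign then turned for the median (-0.37) and for Gar1 (-0.51), Npm1 (-0.50), Nhp2 (-0.33), Wdr75 (-0.26), Noc4l (-0.24), Nop2 (-0.23) and Nolc1 (-0.065), and in S-like against G1-like cells for Gar1 (-0.25), Npm1 (-0.21) and Utp4 (-0.055). Cells with many summed UMIs of the G2/M list, set against cells with few, gave 5 higher and 34 lower (backgrounds 27.3% and 28%). The median was -0.20 (Nop2 -0.47, Nolc1 -0.13, Nhp2 -0.018). That contrast did not use the S score, so its low class is not a G1-like class and can hold S-like cells. Leaving out the deepest 6% gave 10 higher and 13 lower for G2/M-like against G1-like cells (backgrounds 25.5% and 24.4%, median -0.037). That step also gave 5 members higher and 1 lower between isotypes (backgrounds 6.8% and 10.4%). A 10% mitochondrial limit gave 26 members higher for isotype. In G2/M-like against G1-like cells it gave 24 higher and 3 lower (backgrounds 23.5% and 21.5%), with a median of 0.25. It gave 12 lower for G2/M-like against S-like cells (2069 genes called, Lyar 0.0499). Genes called at that limit were 867 for Myc and 4139 for S-like against G1-like cells. For isotype a 40% limit called 3133 genes and gave 6 members higher and 3 lower (backgrounds 11.9% and 15.1%). Heavy chain purity of 95% gave 30 and library totals alone 16 members higher for isotype (backgrounds 5.79% and 8.58%). For Myc, at least 2 UMIs gave 19 members higher (2.19% of all genes, 394 genes called). All cells gave 2068 genes called and equal phase shares 557. A second thinning seed gave 47 members higher (15.9% of all genes, 2791 genes called), with a median of 0.78. That seed called 8 genes for the interaction of Myc with cycling. Equal phase shares put Ubtf at -0.023 between zones. The causes were not tested. With 1 library left out no residual degree of freedom remains, so those values carry no test: the median member change was 0.29 and 0.55 for zones and 0.53 and 0.60 for Myc. The Myc comparison rests on 113 and 116 Myc-detected cells.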
